A study of Mus musculus with 8 samples.

Results

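Mural cells, the pericytes and smooth muscle cells that wrap blood vessels, were represented by 359 nuclei of 77185 nuclei kept from the mouse cerebral cortex (97772 barcodes in the files). They were chosen by their own counts. Kept nuclei had 500 or more detected genes and no more than 2% of their UMIs from mitochondrial genes (UMIs are unique molecular identifiers, each standing for 1 captured RNA molecule). A kept nucleus was selected when Atp13a5, Notch3, Pdgfrb, Rgs5 and Abcc9 together had at least 3 UMIs. It also had to hold at most 2 UMIs of the endothelial genes Flt1 and Mecom, at most 1 of the fibroblast genes Col1a2 and Slc6a13, at most 1 of the neuronal genes Slc17a7, Gad1 and Gad2, and at most 2 of the glial genes Slc1a3, Mog and Inpp5d. Levels of these genes in the selected nuclei follow from the selection and are given as a description.

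In brain capillaries, pericytes lie within the basement membrane that they share with the endothelium, and endothelial PDGF-B acting on their receptor PDGFRβ recruits and keeps them there. On arterioles, smooth muscle cells with an actin and myosin apparatus set vessel diameter, through calcium entry that contracts them and cyclic GMP and ATP-sensitive potassium channels that relax them. NOTCH3 is the Notch receptor of mural cells, and mutations in the human gene cause an inherited small vessel disease.

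The series compared 4 wild type (WT) mice with 4 mice heterozygous for Chd8 (Chd8het, given as Chd8+/- in the protocol), a gene of a chromatin remodeller, all of strain C57BL/6J and 25 days after birth (P25). Each genotype had 2 males and 2 females, with 1 library for each. The labels describe litter- and sex-matched pairs, cortex with its medial part taken away, frozen tissue, nuclei isolated in parallel, and 10x Genomics 3' libraries of v3 chemistry. Replicate 1 of each group was single-indexed and replicate 2 dual-indexed. The Chd8 allele is not given in the sources used here. P-values measure only the spread between these 8 animals' libraries.

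The 8 libraries held 14, 54, 39 and 62 mural nuclei in WT (males 1 and 2, then females 1 and 2), and 49, 49, 35 and 57 in Chd8het, ordered alike. Their summed UMIs ran from 34741 in WT male 1 to 215877 in Chd8het female 2. Median depth was 1344 to 1857 UMIs and 810 to 1184 genes per mural nucleus, below the 5227 to 8390 UMIs of kept nuclei as a whole. Among kept nuclei, 691 barcodes of 76487 occurred in more than 1 library. No barcode was shared between mural nuclei of different libraries, and 9 mural nuclei had a barcode that was also a kept nucleus elsewhere.

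The label was checked with Kcnj8, the pore-forming partner of Abcc9 in the ATP-sensitive potassium channel, which is a listed mural marker that the selection did not use. Kcnj8 had a UMI in 17.5% of the mural nuclei with at most 4000 UMIs and in none of 344 nuclei selected in the same way as endothelial. A count of 0 over the 277 endothelial nuclei with at most 4000 UMIs allows up to 6.75 CPM (counts per 1000000 UMIs), by counting error only, against 143 ± 59.4 CPM (SD, n = 8 libraries) in mural nuclei. At the edge of the selection, the 253 nuclei with a marker sum of 2 had a median of 7485 UMIs, and 5.93% of them had a UMI of Ebf1, a transcription factor abundant in mural nuclei. The 43 nuclei with a sum of 3 had a median of 1995 UMIs, and 41.9% had an Ebf1 UMI. Of the 254 nuclei with a sum of 6 or more, 94.5% had one. Ebf1 was the most often found of 4 genes examined. Vtn, Slc38a11 and Kcnj8 had a UMI in 3.95%, 2.77% and 0.791% of nuclei with a sum of 2. At a sum of 3 these were 30.2%, 20.9% and 9.30%, and at 6 or more 69.7%, 79.1% and 20.1%. The limits on other cell types removed 529 kept nuclei with a marker sum of 3 or more, of which 147 failed only the glial limit, 120 only the neuronal limit, 78 only the endothelial limit and 25 only the fibroblast limit.

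A small group of the selected nuclei stood apart by depth and by UMIs of neuronal genes. Of the 359, 34 had over 4000 UMIs (median 9219.5, highest 40447) and held 43.3% of all mural UMIs, from 17.9% in Chd8het male 2 to 60.3% in Chd8het female 2. In WT male 1, 1 such nucleus supplied 15308 of 34741 UMIs. UMIs of a neuron list, leaving out the 3 neuronal genes of the selection, reached 20 or more in 31 of the 34 (median 129.5) and in 0 of the other 325 (median 6). The list was also higher per UMI, at 14463 CPM in the 34 and 4107 CPM in the 325. With those 3 genes it had a mean of 14605 CPM in all other kept nuclei. The 34 are called mural by the selection only. Their median marker sum was 5, against 8 in the others, and Scrublet predicted 5 of the 34 and 3 of the 325 as doublets. These 34 nuclei were left out in an alternative set after the data were seen, and levels refer to the 325 unless stated. The tests of genotype, sex and index type, and the values given with them, are over all 359 unless stated.

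**Figure D1:**
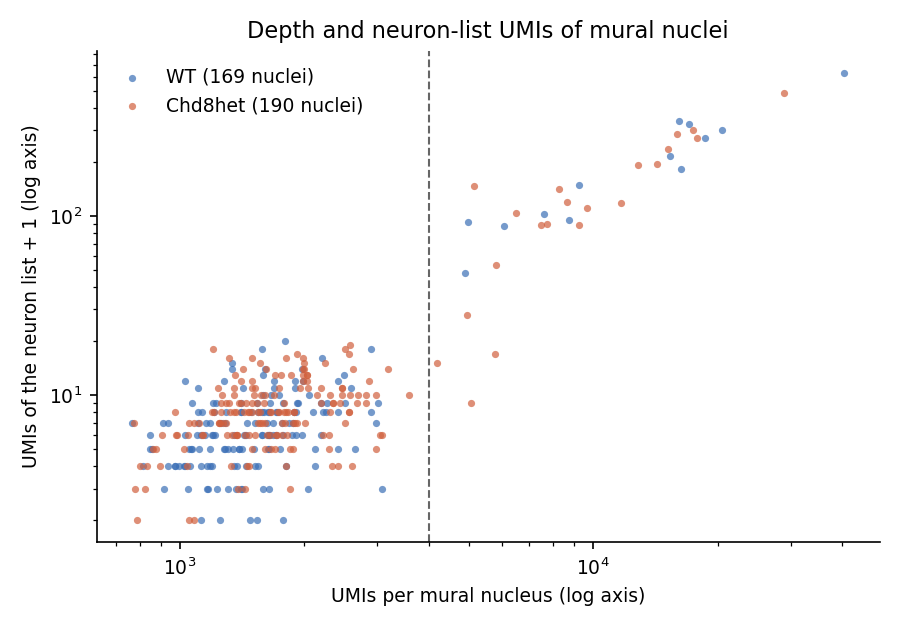
UMIs of the neuron list plus 1 against total UMIs for each of the 359 mural nuclei, both on log axes, coloured by genotype, with a dashed line at 4000 UMIs. The 34 nuclei right of the line have a median of 129.5 neuron-list UMIs and the 325 left of it a median of 6.

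Markers of other cell types were present in the 325 nuclei, and not all of them were low. List sums in CPM, here and below, hold every gene of a list, with those whose UMIs the selection limits, whereas counts of list UMIs per nucleus leave out the neuronal and glial genes of the selection. The endothelial list of 12 genes summed to 360.2 to 496 CPM in WT and 287 to 618 CPM in Chd8het, where the 344 endothelial nuclei, of any depth, had a mean of 7286 CPM, and Mecom was at 0 in every library. The fibroblast list of 10 genes summed to 132 to 645 CPM in WT and 81.7 to 432 CPM in Chd8het, with Lum at 0, beside 5406 CPM in 342 nuclei selected as fibroblasts. Those endothelial and fibroblast nuclei were selected on genes of these same lists, and the mural selection limits Flt1, Mecom, Col1a2 and Slc6a13. Both contrasts therefore follow in part from the selection and are given as a description. The blood list of 5 haemoglobin and red cell genes summed to 0 to 316 CPM in WT and 34.5 to 64.2 CPM in Chd8het. The astrocyte list had the widest range of these 4 lists, with 789.6 to 5712 CPM in WT and 1184 to 4047 CPM in Chd8het, and 8 of the 325 nuclei held 20 or more astrocyte-list UMIs. Its mean over the libraries was 2308 CPM, above the 1586 CPM of all other kept nuclei and the 935 CPM of endothelial nuclei. In WT male 1, a nucleus of 3085 UMIs held 100 astrocyte-list UMIs. None of these lists separated the genotypes.

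In what follows a level with ± is a mean and SD over the 8 libraries' sums of mural nuclei with at most 4000 UMIs, and endothelial and fibroblast values are means over the same libraries, with the depth limit applied to endothelial but not to fibroblast nuclei. Among transcription factors, Ebf1 had 2722 ± 384 CPM in mural nuclei, 1302 CPM in endothelial nuclei of the same depth limit and 7.13 CPM in all other kept nuclei. It was above the endothelial sum in 8 of 8 libraries. Tbx2, a T-box repressor, stood at 159 ± 73.7 CPM in mural, 1.53 CPM in endothelial and 0.841 CPM in fibroblast nuclei. Tbx3, its close relative, was not set apart from endothelium in the same way, with 101 ± 37.9 CPM against 69.7 CPM, and was the higher in 6 of 8 libraries. Zic1 and Zic4, zinc finger factors of the meninges and their derivatives, were found in mural nuclei at 272 ± 92.4 and 235 ± 38.9 CPM and in fibroblasts at 214 and 313 CPM, with 3.44 CPM each in endothelium. Epas1, the hypoxia-inducible factor subunit that endothelium also makes, went the other way, with 195 ± 55.4 CPM in mural and 586 CPM in endothelial nuclei.

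Of the 20 genes with the highest ratio of mural to other nuclei, 5 were annotated as lincRNA or antisense genes (Gm36823, Gm16064, Carmn, Tbx3os1 and Gm26632). Carmn, the smooth muscle noncoding RNA that hosts a microRNA pair, had 515 ± 100.1 CPM in mural nuclei, 0 in endothelial nuclei and 45.2 CPM in fibroblasts. Gm36823, a lincRNA of chromosome 3, had 230.0 ± 68.7 CPM and no UMI in endothelial or fibroblast nuclei. Tbx3os1 reached 814 ± 248 CPM. It spans chromosome 5, 119570130 to 119671365, on the minus strand (GRCm38, GENCODE M21), so that it overlaps the start of Tbx3 at 119670669 and encloses the lincRNA Gm16064. Use of strand in the counting is not given in the sources used here, and reads of these 3 overlapping genes may not be told apart.

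Both subunits of the vascular ATP-sensitive potassium channel had UMIs in mural nuclei. Kcnj8 and Abcc9 lie side by side on the minus strand of chromosome 6, at 142564837 to 142571614 and 142587862 to 142702315 (GRCm38), and neither had a UMI in the endothelial sums of the same depth limit. Ano1, a calcium-activated chloride channel that depolarises mural cells, had 257 to 537 CPM over the libraries against 4.08 CPM in endothelium. Cacna1c, the pore of the L-type calcium channel, had 1465 ± 338 against 196 CPM. The calcium store channel Itpr1 was at 676 ± 151 CPM, with 250.0 CPM in endothelium and 624 CPM in fibroblasts. Ano1, Cacna1c and Itpr1 were each higher in mural than in endothelial nuclei in all 8 libraries. Abcc9 is a selecting gene, and its level follows from the selection.

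Genes of the cyclic GMP pathway, which relaxes mural cells in response to nitric oxide, were also detected. The soluble guanylate cyclase subunits Gucy1a2 and Gucy1b1 had 1069 ± 123 and 332 ± 54.3 CPM, against 120.1 and 22.1 CPM in endothelium. Prkg1, the cyclic GMP-dependent kinase, had 2923 ± 575 CPM against 1378 CPM. Of the phosphodiesterases that degrade cyclic nucleotides, Pde8b was at 1935 ± 647 CPM, above the endothelial sum in 8 of 8 libraries, and Pde3a at 416 ± 209 CPM against 3.71 CPM, whereas Pde4b was below the endothelial sum in 5 of 8 libraries.

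Few receptors for vasoactive signals had enough UMIs to describe. Of 35 listed receptors, 29 had a UMI, and those with none included Agtr1a, Adra2b, Avpr1a, Ptgir and P2ry2. Ednra, the endothelin receptor of smooth muscle, had 326 ± 70.8 CPM with 0 in endothelium, and P2ry14, a receptor for nucleotide sugars, had 315 ± 104 CPM. Cysltr2, a leukotriene receptor, had 95.9 ± 33.2 CPM and no UMI in endothelial or fibroblast nuclei. The ectopeptidase Enpep, which cleaves angiotensin at the cell surface, had 142 ± 28.6 CPM and 0 in the endothelial sums.

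In the PDGF pathway the ligands were lower in mural than in endothelial nuclei. The receptor Pdgfrb, a selecting gene whose level follows from the selection, had 1115 ± 296 CPM in mural and 8.88 CPM in endothelial nuclei. Its ligands Pdgfb and Pdgfd, which the selection did not use, had 17.6 ± 17.4 and 26.5 ± 33.5 CPM in mural nuclei but 334 and 848 CPM in endothelial nuclei, and both were below the endothelial sum in 8 of 8 libraries. In the Notch pathway the selecting gene Notch3 had 789.7 ± 176 CPM, Notch4 24.1 ± 16.3 CPM in mural and 110.3 CPM in endothelial nuclei, and the ligand Dll4 had no mural UMI. The Notch target Hey2 had 89.9 ± 60.6 CPM against 3.44 CPM in endothelium, and Hey1 1.44 CPM from a single UMI against 33.6 CPM. Among receptors of the TGF-beta and BMP family, Bmpr1a was higher in mural nuclei in 8 of 8 libraries, with 188 ± 63.5 CPM against 32.7 CPM. Bmpr2 and the co-receptor Eng were lower in 8 of 8, with 167 ± 31.4 against 701 CPM and 86.4 ± 50.2 against 389 CPM.

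Matrix genes differed in how they compared with endothelium. Vtn, which encodes vitronectin, a ligand of endothelial integrins, had 993 ± 381 CPM in mural nuclei, 12.7 CPM in endothelial nuclei and 237 CPM in fibroblasts. Lama2, the laminin chain of the outer vascular basement membrane, had 824 ± 263 CPM against 17.3 CPM in endothelium and 641 CPM in fibroblasts. The collagen chains Col4a1 and Col4a2 did not stand above endothelium, at 244 ± 101 against 270.2 CPM and 175 ± 81.8 against 275 CPM. Among solute carriers, Slc38a11, of an amino acid transporter family, had 1026 ± 255 CPM with 0 in fibroblasts and in endothelial nuclei of the same depth limit, and Slc6a20a, an imino acid transporter, had 1001 ± 290.2 CPM against 6.28 CPM in endothelium but 952 CPM in fibroblasts. Slc30a10, a manganese exporter, had 387 ± 49.0 CPM against 1.53 CPM in endothelium.

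**Figure D2:**
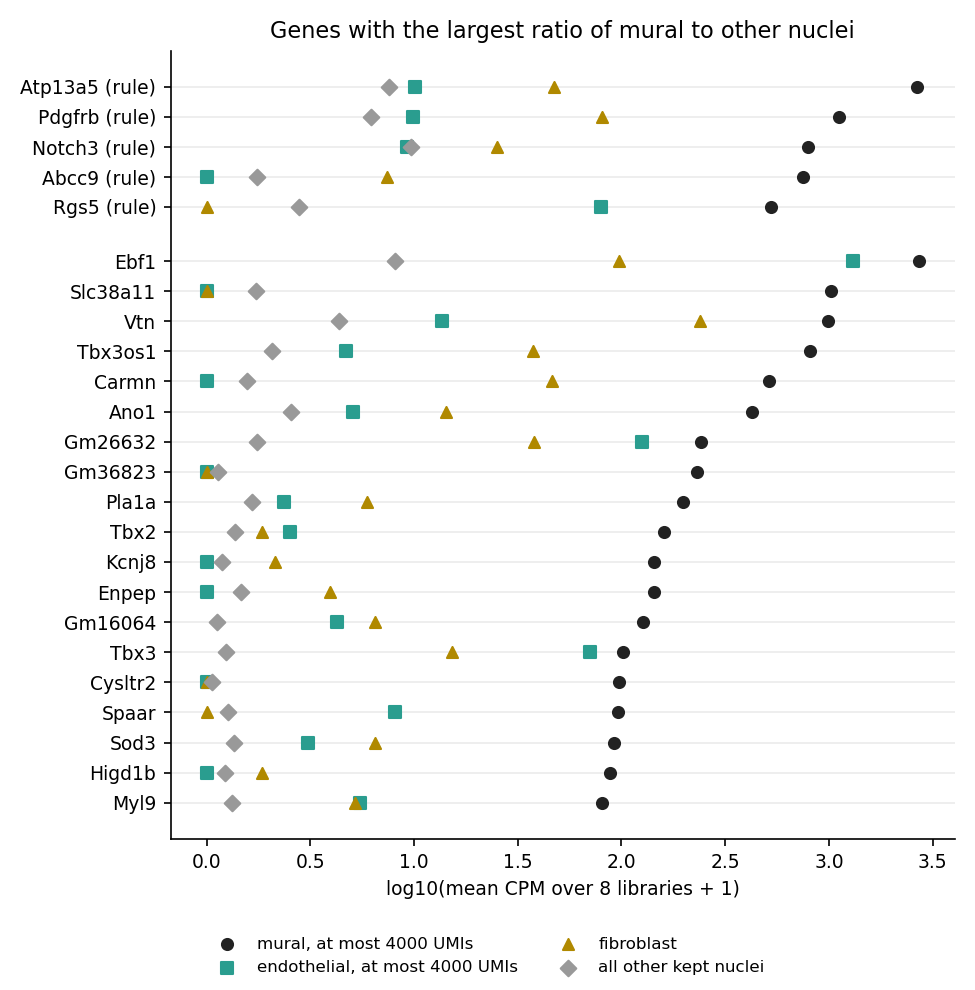
Mean CPM over 8 libraries, as log10 of CPM plus 1, of the 5 selecting genes (marked rule) and 19 of the 20 other genes with the highest ratio of mural to all other kept nuclei, in 4 sets of nuclei. Slc38a11, Gm36823 and Cysltr2 are at 0 in both endothelial and fibroblast nuclei, while Ebf1, Tbx3 and Gm26632 have their endothelial points close to the mural ones.

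The contractile genes of arteriolar smooth muscle were sparse. Acta2, Myh11, Tagln, Cnn1 and Lmod1 together had no UMI in 287 of the 325 nuclei, 1 in 23, 2 in 7 and 3 or more in 8. The 15 nuclei with 2 or more came from 6 libraries, with 2 in WT male 2, 3 in WT female 2, 2 in Chd8het male 1, 4 in Chd8het male 2, 1 in Chd8het female 1 and 3 in Chd8het female 2. Their median depth was 2030 UMIs, against 1536 in the 287 without such a UMI, and both sets had a median of 0 endothelial-list and 1 astrocyte-list UMIs, with 8 and 6 neuron-list UMIs. A limit of 2 UMIs marks a range of one score and not a separate type, and 23 nuclei lay just under it.

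Some genes outside that score differed between the 15 and the 287 nuclei, here as summed counts with exact Poisson intervals that cover counting error only and carry no test between animals. Kcnab1, a potassium channel beta subunit, was at 1362 CPM (95% interval 978 to 1848) in the 15 and 109.6 CPM (81.6 to 144) in the 287. Pde3a was at 1861 CPM (95% interval 1406 to 2417) and 359 CPM (307 to 418), and Prkg1 at 6081 CPM (95% interval 5232 to 7029) and 2818 CPM (2667 to 2974). Mylk, the kinase that activates smooth muscle myosin, was at 598 CPM (95% interval 355 to 945) and 241 CPM (198 to 289.6). Cacna1c and the calcium release channel Ryr2 were also higher, with intervals that did not overlap. So was Itga8, which like Mylk is of the contractile list. Others of that list outside the score had overlapping intervals. They were Cald1, at 1961 CPM (95% interval 1493 to 2529) against 1425 CPM (1318 to 1538), Myl9 (54.0 to 388 against 45.3 to 94.6) and Ednra (279 to 822 against 263 to 367).

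Other mural genes differed in direction in the same 15 nuclei. Slc38a11, which the selection did not use, was higher, at 1861 CPM (95% interval 1406 to 2417) against 1027 CPM (937 to 1124), and so was the selecting gene Rgs5, at 930.5 CPM (95% interval 618 to 1345) against 507 CPM (445 to 576). Others were lower. Atp13a5 was at 1229.6 CPM (95% interval 866 to 1695) against 2830.5 CPM (2679.6 to 2988), and Abcc9 at 166 CPM (95% interval 54.0 to 388) against 761 CPM (684 to 844). Both also belong to the marker sum that selected the nuclei. Outside it, Slc6a20a was at 399 CPM (95% interval 206 to 697) against 1053 CPM (962 to 1151), and Vtn at 366 CPM (95% interval 182 to 654) against 959 CPM (872 to 1052). Kcnj8 had 1 UMI in the 15 nuclei and its intervals overlapped. Ebf1 was at 2891 CPM (95% interval 2316 to 3566) and 2764 CPM (2615 to 2919) and Carmn at 565 CPM (95% interval 329 to 905) and 514 CPM (451 to 583), each pair with overlapping intervals. Of the 15 nuclei, 12 came from dual-indexed libraries, where Vtn was low in mural nuclei in general. Within the dual-indexed libraries alone, a comparison chosen after seeing the data, Vtn had 3 UMIs in the 12 nuclei, at 129 CPM (95% interval 26.5 to 376), against 737 CPM (95% interval 643 to 842) in 174 nuclei with no contractile UMI. There the intervals of Rgs5 overlapped, and those of Kcnab1, Pde3a, Prkg1, Mylk, Cacna1c, Ryr2, Slc38a11, Atp13a5, Abcc9 and Slc6a20a were apart in the same direction as over all libraries.

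**Figure D3:**
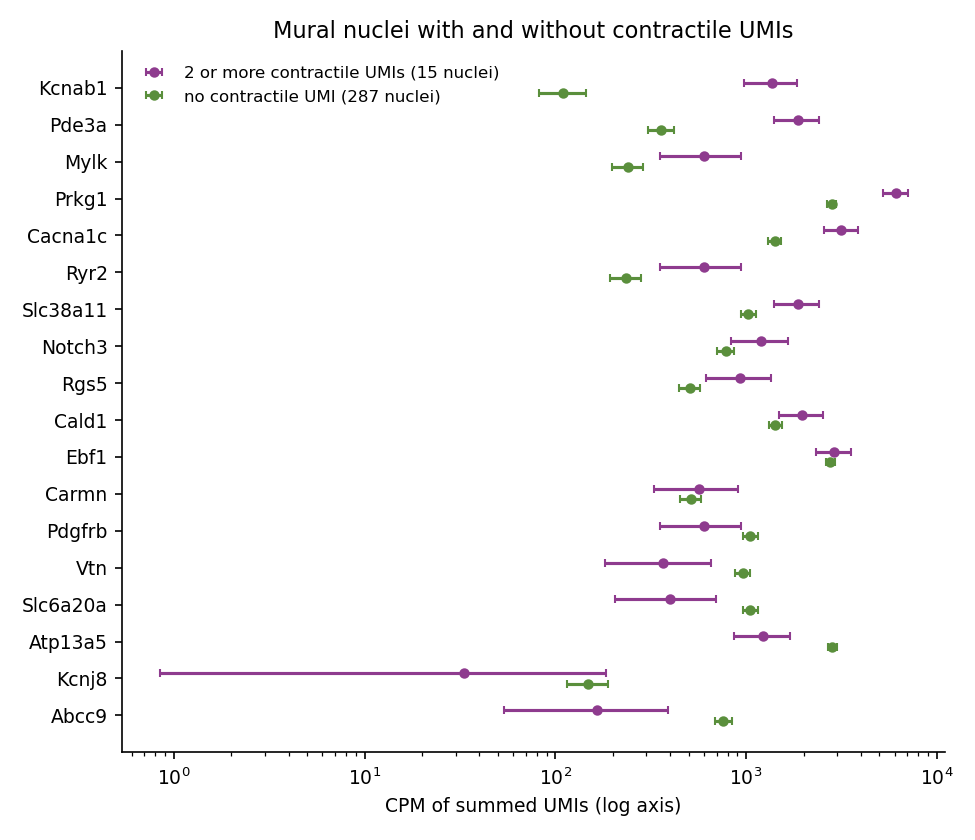
CPM of summed UMIs with 95% Poisson intervals (log axis) for 18 genes in 15 mural nuclei with 2 or more contractile UMIs and 287 with none, all with at most 4000 UMIs. Kcnab1, Pde3a, Mylk, Prkg1, Cacna1c, Slc38a11 and Rgs5 are higher in the 15, Abcc9, Atp13a5, Slc6a20a and Vtn lower, and Ebf1, Carmn and Cald1 overlap. Of the 15 nuclei, 12 came from dual-indexed libraries, and within those Rgs5 overlaps too.

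The share of mural nuclei among kept nuclei was 0.155% (95% exact binomial interval 0.0848 to 0.260), 0.692%, 0.368% and 0.596% in WT males 1 and 2 and WT females 1 and 2. The Chd8het libraries, ordered alike, had 0.454%, 0.492%, 0.344% and 0.678%. The ranges of the genotypes overlapped, with WT male 1 the lowest of all. Means were 0.453% ± 0.241 (SD, n = 4) in WT and 0.492% ± 0.139 (SD, n = 4) in Chd8het, and the exact permutation test (two-sided, smallest possible p 0.0286) gave p = 0.8286. The difference, Chd8het minus WT, was 0.138 percentage points among single-indexed and -0.0592 among dual-indexed libraries, and it was -0.0600 without WT male 1 and -0.0227 without Chd8het female 2. Without the 34 deep nuclei it went from 0.0392 to 0.0165 percentage points.

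Mural nuclei made up 33.5% ± 11.4 (SD, n = 4) of the mural, endothelial and fibroblast nuclei together for WT and 33.5% ± 3.40 for Chd8het, with an exact permutation p of 1. That difference went from -0.0136 to -1.53 percentage points without mural, endothelial and fibroblast nuclei over 4000 UMIs (exact permutation p = 0.8286). The smallest p-values came with index type, and they did not pass after adjustment. The share of kept nuclei was 0.330% ± 0.126 in the 4 single-indexed and 0.614% ± 0.0919 in the 4 dual-indexed libraries, and the share of vascular nuclei 28.2% ± 7.71 and 38.8% ± 2.94, each without overlap and each with an exact permutation p of 0.0286, the smallest this design allows (0.171 after Benjamini-Hochberg adjustment over 12 exact tests). Index type is the replicate number, so animals and index type cannot be told apart in this difference. Nor can litters, if they follow that number. The labels do not name the litter pairs. If same-sex libraries of a number are pairs, each index type held 2 of them. These p-values, like the gene tests for index type, treat the 4 libraries of a type as independent, so they may then be too small. By sex, the share of kept nuclei was 0.448% ± 0.222 in males and 0.496% ± 0.166 in females (exact permutation p = 0.743). The 12 tests were those of 4 results, the contractile share and depth described next included, by genotype, sex and index type.

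**Figure D4:**
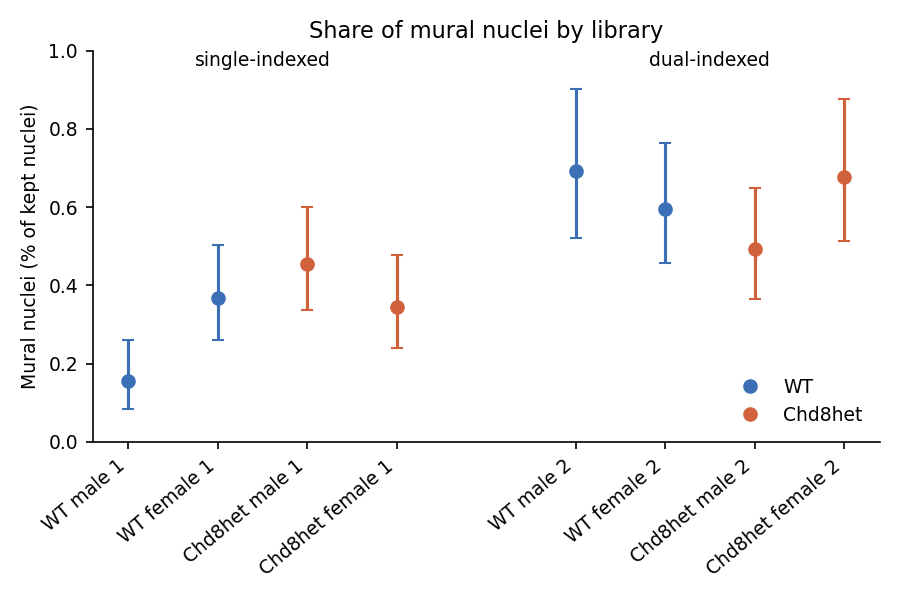
Mural nuclei as a percent of kept nuclei in each of the 8 libraries, with 95% exact binomial intervals, coloured by genotype and set apart by index type. Single-indexed libraries lie between 0.155% and 0.454% and dual-indexed ones between 0.492% and 0.692%, while WT and Chd8het overlap.

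The contractile share was compared after each nucleus was thinned to 1000 UMIs, which left 334 of the 359 nuclei and 11 with 2 or more contractile UMIs. It was 1.29% ± 1.60 (SD, n = 4) in WT and 3.99% ± 3.60 in Chd8het, with an exact permutation p of 0.257, higher in Chd8het in 3 of 4 pairs. Before thinning, 0, 2, 0 and 3 nuclei held 2 or more contractile UMIs in the WT libraries, ordered as above, and 2, 5, 1 and 3 in the Chd8het libraries, so the numbers behind this share are small. The difference of 2.69 percentage points fell to 1.30 without Chd8het male 2 and to 0.327 when 1 contractile UMI was enough, and it was 4.02 without Chd8het female 1. It was 1.07 with a mitochondrial limit of 5% and 1.75 without the deep nuclei, but both settings drew the thinned UMIs anew. With the 5% limit, Chd8het male 2 went from 4 to 3 such nuclei after thinning, while its count before thinning stayed at 5. The part of the new draw in these 2 values was not tested. By index type the share was 0.556% ± 1.11 in the single-indexed and 4.72% ± 2.75 in the dual-indexed libraries (SD, n = 4 each), with an exact permutation p of 0.0571 and 0.229 after Benjamini-Hochberg adjustment over the 12 tests. Median UMIs per mural nucleus were 1494 ± 147 (SD, n = 4) for WT and 1691 ± 190.1 for Chd8het, with an exact permutation p of 0.171, higher in Chd8het in 4 of 4 pairs, and the difference went from 197 to 144 UMIs without the deep nuclei. Neither difference passed the test.

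Chd8 itself had 5, 10, 7 and 18 UMIs in the mural nuclei of WT males 1 and 2 and WT females 1 and 2, and 4, 11, 6 and 6 in those of Chd8het, ordered alike. That is 101 ± 29.3 CPM in WT and 60.0 ± 34.7 CPM in Chd8het (SD, n = 4), and without the 34 deep nuclei 76.1 ± 36.7 and 75.2 ± 32.1 CPM. Chd8 was under the count filter of the test, and with no filter its log2 change was -0.75 (SE 0.463), with edgeR adjusted p = 0.966. In all other kept nuclei, WT libraries had 74.9, 81.5, 79.4 and 79.9 CPM and Chd8het libraries 76.6, 90.3, 78.4 and 77.5 CPM. Counts of 3' tags do not separate transcripts of the intact allele from those of the other, so they do not check the genotype labels, which are used as given.

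No gene passed the test for genotype. With counts summed per library, edgeR's quasi-likelihood test called 0 of 1971 genes at a Benjamini-Hochberg adjusted p under 0.05 (0%), and the smallest adjusted p was 0.999. At an unadjusted p under 0.05 there were 48 genes (2.44%), 25 higher and 23 lower in Chd8het, and DESeq2 called 0 with 24 at that level. Without the 34 deep nuclei 0 of 1234 genes were called and 46 had an unadjusted p under 0.05 (3.73%). CPM of the genotypes did not overlap for 37 of the 1971 genes (1.88%). With a term for each pair the count stayed at 0, with 71 genes at an unadjusted p under 0.05.

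The 10 genes with the smallest unadjusted p in each direction are described by their values only, over all 359 nuclei unless stated. Higher in Chd8het on average were Rcan2, Sh3kbp1, Kcnab1, Rorb, Pde7a, Brinp3, Ehbp1, Tecr, Luzp2 and Meis2, and lower were Gm26936, Aff3, Galnt7, Caln1, Tcaf1, Pdzd2, Nos1ap, Otud7a, Gria1 and Osbpl3. Between 24.7% (Tecr) and 79.3% (Otud7a) of their UMIs came from the 34 deep nuclei. Without those nuclei 12 of the 20 were below the count filter and 8 of 8 tested had the same sign. The remaining nuclei are part of those that chose these genes, so the shared sign is no independent check.

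Rcan2, an inhibitor of calcineurin, had 115, 34.6, 102 and 79.0 CPM in the WT libraries (males 1 and 2, then females 1 and 2) and 278, 227, 202 and 189.9 CPM in Chd8het, ordered alike. Its groups did not overlap, with a log2 change of 1.53 (SE 0.367) and edgeR adjusted p = 0.999. In the 325 shallower nuclei its groups did overlap, at 206, 50.6, 109.7 and 50.6 CPM in WT and 223, 115, 42.8 and 245 CPM in Chd8het. Ehbp1, which links endosomes to actin, kept groups that did not overlap, with 103, 177, 175 and 182 CPM in WT and 335, 276, 214 and 245 CPM in Chd8het without the deep nuclei, a log2 change of 0.64 (SE 0.318) and edgeR adjusted p = 0.999.

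Kcnab1 was the gene that was high in the nuclei with contractile UMIs. Over all 359 nuclei it had 28.8, 95.2, 124 and 89.5 CPM in the WT and 297, 661, 107 and 171 CPM in the Chd8het libraries, the highest being Chd8het male 2. The log2 change was 1.48 (SE 0.450), and 0.89 (SE 0.487) without the deep nuclei, each with edgeR adjusted p = 0.999. Of its 97 UMIs in the 325 nuclei, 41 lay in the 15 nuclei with 2 or more contractile UMIs, of which 5 were from WT and 10 from Chd8het libraries. Their part in the Kcnab1 values was not tested. Rorb, an orphan nuclear receptor gene, had 374, 104, 67.7 and 63.2 CPM in WT and 454, 151, 654 and 278 CPM in Chd8het over all 359 nuclei, with WT male 1 among the high values. Of its 223 UMIs, 130 lay in the 325 shallower nuclei. Over all 359 nuclei the astrocyte list summed to 3800, 1350, 869 and 927 CPM in WT and 2216, 1096, 2617 and 968 CPM in Chd8het. Both Rorb and this list were thus highest in WT male 1, Chd8het male 1 and Chd8het female 1. The part of astrocyte-list UMIs in the Rorb values was not tested.

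Among genes lower on average in Chd8het, Pdzd2, a protein of several PDZ domains, had 691, 1073, 699.8 and 600.4 CPM in WT and 454, 501, 416 and 523 CPM in Chd8het, groups that did not overlap, with a log2 change of -0.68 (SE 0.251). Without the deep nuclei it was -0.43 (SE 0.253), and the groups overlapped. Slc38a11, the mural amino acid transporter gene, had 875, 1367, 1162 and 1356 CPM in WT and 767, 828, 749 and 1108 CPM in Chd8het in the 325 nuclei, again with overlap. Its log2 change was -0.49 (SE 0.234) there and -0.43 (SE 0.254) over all 359. For both genes edgeR gave adjusted p = 0.999.

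None of the gene groups held a called gene for genotype. The 6 mural markers, 5 of them selecting genes, had a median log2 change of 0.09, which became -0.16 over the 5 tested without nuclei over 4000 UMIs, given as a description. The pericyte list (20 genes) had 8 tested, 4 higher and 4 lower in value, with a median log2 change of 0.00099, beside -0.0095 over all genes tested. Of 21 mural transcription factors 10 were tested, with a median of 0.01 and only Meis2 at an unadjusted p under 0.05. Of 20 contractile genes 4 were tested (median 0.08), of 19 Notch genes 4, the selecting gene Notch3 among them (median 0.21), of 25 TGF-beta and BMP genes 2 (median -0.17) and of 35 vasoactive receptors 2 (median -0.05). For these 4 groups no gene had an unadjusted p under 0.05. Of 7 PDGF genes only the selecting gene Pdgfrb was tested, and its log2 change of -0.15 is given as a description.

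The larger groups gave like values. In the matrix group 10 of 28 genes were tested, with a median log2 change of -0.10 and none at an unadjusted p under 0.05. Of 26 ion channel and calcium store genes 17 were tested, the selecting gene Abcc9 among them (median -0.10), with Kcnab1 higher and the calcium pump Atp2a2 lower at that level. Atp2a2 had a log2 change of -0.63 (SE 0.281) with the deep nuclei and -0.03 (SE 0.315) without them. Of 20 cyclic nucleotide genes 13 were tested, with a median of 0.11 that became -0.08 without the deep nuclei. Of 16 solute carriers 9 were tested (median -0.20, and -0.29 without the deep nuclei, where 7 of 8 were lower in value). The 79 ribosomal protein genes had only 2 above the filter, with a median of 0.14.

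Markers of other classes were compared over the same libraries without the deep nuclei. The neuron list summed to 2727 to 4481 CPM in WT and 3833 to 5163 CPM in Chd8het, the oligodendrocyte list to 463 to 1042 CPM in WT and 723 to 954 CPM in Chd8het, the microglia and macrophage list to 51.5 to 285 CPM in WT and 245 to 364 CPM in Chd8het and the OPC (oligodendrocyte precursor) list to 103 to 418 CPM in WT and 348 to 1127 CPM in Chd8het. All 4 ranges overlapped. The neuron, microglia and macrophage, and OPC lists had both a higher lowest and a higher highest sum in Chd8het. The oligodendrocyte list had only a higher lowest sum. The lowest sum of each list was that of WT male 1. The precursor gene Sox6 had an unadjusted p under 0.05, with a log2 change of 0.95 (SE 0.408) and edgeR adjusted p = 0.999. Their part in other values was not tested.

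The genotype difference in mural nuclei was set against that in the 344 endothelial nuclei of the same libraries. The interaction term of edgeR, with each library as a block, called 0 of 2057 genes (0%), and 69 had an unadjusted p under 0.05. The smallest adjusted p was 0.933. No gene was called either with DESeq2 size factors, with no count filter, after thinning or without nuclei over 4000 UMIs.

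Sex and index type gave called genes. For sex, Xist and Tsix, the overlapping noncoding RNAs of X inactivation, were the 2 genes called of 1971 (0.101%), higher in females with log2 differences of 10.01 (SE 0.665) and 10.44 (SE 0.666), and edgeR adjusted p = 3.18e-06 for each. Both were also the 2 calls without the deep nuclei. The next smallest p-values included those of Mlip, Gabra2 and Mgat4c, with edgeR adjusted p = 0.118 each. For sex, 216 of 1971 genes had an unadjusted edgeR p under 0.05, and 39 of 1234 without the deep nuclei. Those nuclei held 44.4% to 60.3% of mural UMIs in female libraries and 17.9% to 44.1% in male ones. Their part in these p-values was not tested. For index type, with sex and genotype in the fit, Alcam, a cell adhesion molecule, was the only call (0.0507%). It had 317, 203, 362 and 238 CPM in the single-indexed WT male, WT female, Chd8het male and Chd8het female and 1401, 848, 973 and 607 CPM in the dual-indexed libraries in that order, a log2 difference of 1.61 (SE 0.254) with edgeR adjusted p = 0.0358. Without the deep nuclei its groups overlapped and it was not called, with a log2 difference of 1.19 (SE 0.357) and edgeR adjusted p = 0.112. Alcam was also not called when any 1 of WT male 1, WT male 2, WT female 2, Chd8het male 1, Chd8het male 2 or Chd8het female 1 was left out. Each of these gave 0 calls, except that Dscaml1 was the single call without WT female 2.

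In the 325 shallower nuclei, 8 of 1234 genes (0.648%) were called for index type, among them 2 mural genes. Vtn had 1235, 1338, 1324 and 1456 CPM in the single-indexed WT male, WT female, Chd8het male and Chd8het female and 645, 728, 724 and 489.9 CPM in the dual-indexed libraries in that order. The ranges were far apart, and its log2 difference was -1.22 (SE 0.226) with edgeR adjusted p = 0.00685. Slco3a1, an organic anion transporter, went the other way, with 515, 439, 293 and 385 CPM in single-indexed and 899, 951, 862 and 887 CPM in dual-indexed libraries, a log2 difference of 1.04 (SE 0.241) with edgeR adjusted p = 0.0446. In all other kept nuclei Slco3a1 also differed, with 79.2 to 87.0 CPM in single-indexed and 124 to 152 CPM in dual-indexed libraries, whereas Vtn was at 2.90 to 4.63 and 2.33 to 3.29 CPM, with overlap.

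The other 6 genes called had edgeR adjusted p-values between 0.00137 and 0.0476. Malat1, an abundant nuclear noncoding RNA, fell by 0.70 on the log2 scale, from 186617 to 233133 CPM to 120523 to 153926 CPM, and in all other kept nuclei it went from 74789 to 82791 CPM to 38369 to 59718 CPM. The mitochondrial mt-Cytb, the sodium pump subunit Atp1b1 and Ddit4l, an inhibitor of mTOR signalling, were lower, with log2 differences of -1.16 (SE 0.256), -1.07 (SE 0.254) and -1.51 (SE 0.347). The noncoding 4933424G05Rik was higher, with 1.52 (SE 0.272). Gpc5, an astrocyte-list gene, had 3242, 132, 892 and 2227 CPM in single-indexed and 430.3, 70.8, 425 and 489.9 CPM in dual-indexed libraries, which overlapped. The 10 tested matrix genes, Vtn among them, had a median log2 difference of -0.59, beside -0.0083 over all genes tested, and 8 of 10 were lower in value. The astrocyte list lay in the same direction, with a median log2 difference of -1.04 and 4 of 4 tested genes lower in value. It summed to 5712, 789.6, 2662 and 4047 CPM in the single-indexed and 1683, 961, 1184 and 1423 CPM in the dual-indexed libraries, which overlapped, and its part in the matrix values was not tested. Genotype and sex were balanced over index type. The part of index type in any gene level cannot be told apart from that of the animals, or of litters that follow replicate number.

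**Figure D5:**
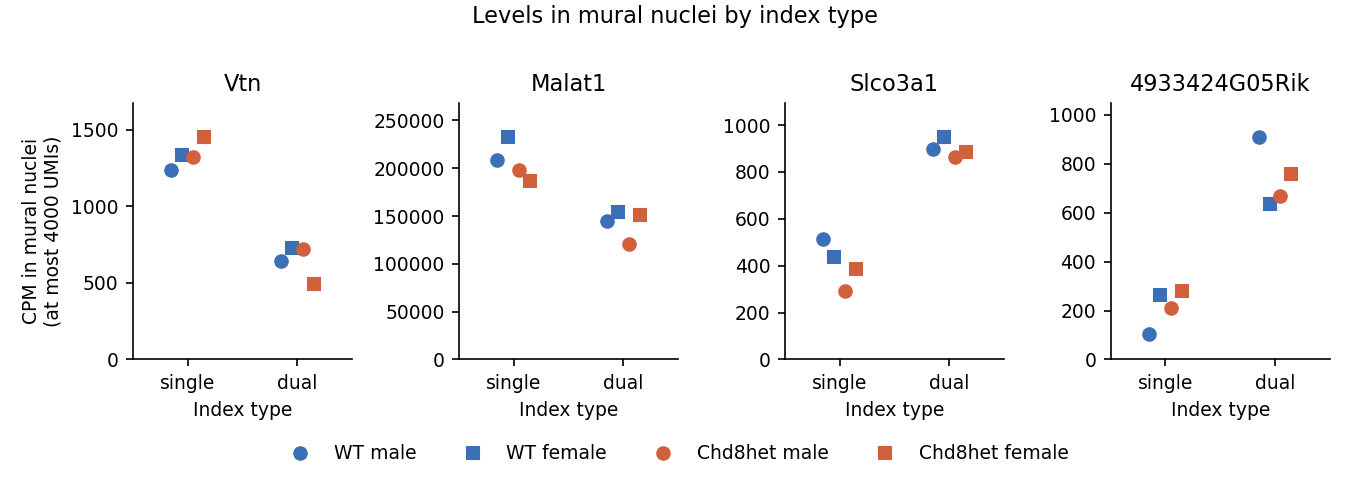
CPM of 4 genes in the mural nuclei with at most 4000 UMIs, 1 point per library, by index type, with colour for genotype and shape for sex. Vtn and Malat1 are lower and Slco3a1 and 4933424G05Rik higher in all 4 dual-indexed libraries than in any single-indexed one.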

How the data were processed

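Counts came from 8 libraries of single-nucleus RNA-seq of cortex, 1 per animal. The authors deposited whole-number UMI counts per gene and barcode for 32285 genes. Per the submitters' processing notes, STAR 2.7.9a, STARsolo, Cell Ranger and the build mm10 were used, with no role stated, and use of strand or intron reads is not given in the sources used here. GENCODE M21 (GRCm38) gave coordinates and gene types.

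Mural, endothelial and fibroblast nuclei were selected on marker UMIs and counts were summed per library. The endothelial selection used Flt1, Mecom, Cldn5, Slco1a4 and Ptprb, and the fibroblast selection Col1a2, Slc6a13, Ranbp3l, Bnc2 and Slc7a11. Both also carried limits on the other classes. Summed counts were tested with edgeR 4.0.16 (R 4.3.3): filterByExpr with a count minimum of 10, TMM scaling, quasi-likelihood F test, two-sided, in models of sex and genotype, with index type added for that term, and Benjamini-Hochberg adjustment over all genes tested. Some genes that the naming rule selects are not reported here. Standard errors (SE) were derived from the F statistic. Log2 changes are Chd8het minus WT, female minus male, or dual minus single. CPM are per 1000000 summed UMIs. Shares were tested by exact permutation over the 70 assignments of libraries. The test code was checked on simulated data. Alternatives were DESeq2 1.42.0, DESeq2 size factors, no filter, other models, other marker sums and mitochondrial limits, removal of doublets predicted by Scrublet (scanpy 1.11.5), thinning, each library left out, and, added after the data were seen, nuclei over 4000 UMIs left out. Doublets were otherwise kept. Intervals cover counting error only.

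The members, gene lists and tests were chosen with earlier results of these data known. Genes were named by rule: genes called for genotype, then the 10 with the smallest p in each direction outside the selecting genes; 6 for sex; 5 in each direction for index type; 20 by ratio of mural to other nuclei, with at least 50 CPM and UMIs in every library; and, in each list, genes with unadjusted p under 0.05 and abundant ones. Index type genes are given here as those called, and the genes compared between nuclei with and without contractile UMIs were picked after values had been seen.

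Same-sex libraries that share a replicate number were treated as pairs. The labels describe litter-matched pairs but do not name them, so this is an assumption. In all kept nuclei the deviations of same-numbered libraries from group means correlated (r = 0.560 and 0.682, and from genotype means 0.443 to 0.635). By group means, the male libraries correlated best with their own number and the female ones did not. In mural sums r was 0.0975 in females and 0.259 in males, and 0.0714 and 0.199 without the deep nuclei. The numbers also coincide with index type, so these correlations cannot tell a shared litter from a shared index type and are no check of the pairing. No 2 libraries of a group held the same counts (chi-square per degree of freedom over genes 72.7 to 151).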

Additional observations from a re-analysis of the deposited data

Results flagged for a closer look

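In 5 of 90 groups of 4 libraries, 1 library lay farther from the rest than Dixon's 95% critical value allows, and chance alone flags about 1 in 20 groups. All values are over the 359 mural nuclei. Rorb was at 374 CPM in WT male 1, where the other WT libraries had 63.2 to 104 CPM. Tcaf1 was at 46.4 CPM in Chd8het male 1, below the 94.4 to 102 CPM of the other Chd8het libraries. The lincRNA Gm36823 was at 104 CPM in Chd8het male 2, against 119 to 121 CPM. Higd1b, a mitochondrial protein gene of pericytes, was at 90.3 CPM in WT female 1, against 28.8 to 36.9 CPM. Ano1 was at 434 CPM in Chd8het male 2, against 214 to 250.4 CPM.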

How the results depend on the processing

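The sign of the genotype difference in the share of kept nuclei was not stable: with each library left out in turn the difference ran from -0.0600 to 0.119 percentage points. The difference in the share of vascular nuclei, -0.0136 percentage points, became 0.598 with a marker sum of at least 2, 0.382 with a mitochondrial limit of 5%, 0.717 with doublets removed, -1.22 with a marker sum of at least 5 and -1.53 without nuclei over 4000 UMIs, and ran from -5.49 to 2.88 with each library left out. Genotype calls numbered 2 with no count filter (Ptgds and Rorb) and 0 under every other alternative run. Sex calls numbered 29 with no filter, 5 with a marker sum of at least 2, and 2 to 5 with each library left out (5 without WT female 2, 4 without Chd8het female 1). Index type calls numbered 29 with no filter, 4 with DESeq2, 47 with a marker sum of at least 2, 17 after thinning, 8 without nuclei over 4000 UMIs, 0 with no sex term, 0 with a marker sum of at least 5, 0 with doublets removed, and 0 to 7 with each library left out (5 without WT female 1, 7 without Chd8het female 2). The cause of these moves was not tested. A marker sum of at least 2 adds 253 nuclei with a median of 7485 UMIs. Of these, 5.93% had a UMI of Ebf1 and 3.95% of Vtn, so few showed these mural genes.

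Of 373 alternative values for the 20 genes named for genotype, 370 kept their direction uncalled and 1, Rorb with no filter, was called. All alternatives reuse counts of the libraries that chose these genes. Sizes were less stable: with a marker sum of at least 2 the log2 change went from 1.48 to 0.031 for Kcnab1, from 1.53 to 0.20 for Rcan2 and from 1.13 to 0.30 for Brinp3. Luzp2 and Meis2 reversed with a marker sum of at least 2, at -0.54 and -0.0075. Most nuclei added by that setting had no Ebf1 UMI, so the values under it may not describe mural nuclei. With the replicate block there were 0 genotype calls, and the paired sign-flip test of the share of kept nuclei gave 0.0392 percentage points with an exact p of 0.75. The 20 genes stayed uncalled with the block. In the gene lists no gene was called with it, Tpm1 of the contractile list had an unadjusted p of 0.0392 (0.102 without it), and the pericyte median became -0.011, with 3 higher and 5 lower. The other shares, the median depth and the sex, index type and interaction tests had no such fit.

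Depth limits these results: 14 nuclei and 34741 UMIs in WT male 1, 1234 testable genes without the deep nuclei, and no leave-one-out run on that set.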
